A study of Mus musculus with 8 samples.

Results

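The early answer of the lymph node (LN) to adjuvant was measured as the difference between arrays from injected mice and arrays from untreated mice, over both genotypes. The arrays were assigned by the treatment and genotype in their labels, and all 8 arrays of the series took part, 4 injected and 4 untreated. The untreated group held 2 arrays of wild-type (WT) C57Bl/6 mice and 2 arrays of H3RKO mice, which are gene-targeted for Hrh3, the gene of the histamine H3 receptor. The injected group held 1 array each of WT CFA, WT CFA+PTX, H3RKO CFA and H3RKO CFA+PTX, all taken at 24 h. Mice were 8 weeks old and of both sexes, and each array was made from LN RNA pooled from at least 3 mice. How the sexes were spread over the pools is not given. P-values measure only the spread between these pools. For injected arrays this spread also holds the difference between CFA and CFA+PTX, each of which has 1 array per genotype. CFA (complete Freund's adjuvant) is mineral oil with killed mycobacteria, and PTX is pertussis toxin, which blocks signaling through Gi proteins. For the CFA+PTX arrays the title gives only PTX, and the description gives CFA with PTX. The sources used here describe no sham injection of the untreated mice and do not say which LN went onto the arrays, so injection, oil, mycobacteria and PTX cannot be told apart in the pooled difference.

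Signals are log2 values of the Robust Multichip Average (RMA), so a difference of 1 is a doubling. Every array carried the markers of a LN. The T cell receptor subunit gene Cd3e lay between 10.29 and 10.61 in the 8 arrays, the B cell receptor subunit gene Cd79a between 12.51 and 12.81, the follicle chemokine gene Cxcl13 between 12.63 and 13.26, and Glycam1, a mucin-like gene of high endothelial venules, between 13.16 and 13.57. Ccl19 and Ccl21a are not analysed here, since the table of probe genes pairs neither with a single-gene probe set. Hrh3 lay between 6.56 and 6.66 in the 4 WT arrays and between 7.20 and 7.29 in the 4 arrays labelled H3RKO. The position of its probe set relative to the deleted part is not given in the sources used here, and this signal therefore checks neither genotype label. Injection moved it by 0.06 ± 0.05 (log2 ± SE, n = 4 against 4 arrays). The WT untreated replicate 1 and WT CFA+PTX arrays stood apart in 17 genes of salivary and lacrimal gland, with mean signals of 8.55 and 5.76 against 11.01 to 11.79 in the other 6 arrays. In those 6 arrays the mean gland signal thus lay above that of Cd3e, so they carried gland RNA beside that of LN. The brown fat gene Ucp1 ranged from 7.58 to 11.34 over the 8 arrays. For some results below, but not for all that change, values without the 2 gland-low arrays, WT untreated replicate 1 and WT CFA+PTX, are also given.

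As background, an adjuvant depot under the skin sends fluid, mycobacterial products and migrating cells to the LN that drains it. Within a day, macrophages and stromal cells of such a node are known to make acute phase proteins and chemokines, type I interferon switches on antiviral genes, and dendritic cells arrive from the skin. The node is held in shape by fibroblastic reticular cells, its capsule and the surrounding fat, which make collagens and other matrix proteins, and lymphocytes begin to divide in numbers only later.

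After injection 1 acute phase gene rose strongly in the LN, and 3 matrix genes and 1 gene of cholesterol synthesis fell. After Benjamini-Hochberg adjustment over 22626 probe sets, 6 genes were called at an adjusted p under 0.05 (limma, with genotype as a covariate), 2 higher and 4 lower after injection. On 1 probe set per gene, this is 0.0161% of 12393 genes higher and 0.0323% lower. At an unadjusted p under 0.05, 694 genes were higher (5.6%) and 621 lower (5.01%). In 416 genes all 4 injected arrays lay above all 4 untreated arrays (3.36%), and in 363 genes all lay below (2.93%). These shares are the background against which the gene groups below are read. The median difference over all genes was 0.01, and 55.1% of genes were higher.

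Saa3, which encodes a serum amyloid A made outside the liver by macrophages, fat cells and epithelia, had the largest rise. Its log2 signal was 7.38 and 8.32 in the untreated WT arrays and 8.37 and 8.41 in the untreated arrays labelled H3RKO. It reached 10.46 after CFA and 11.11 after CFA+PTX in WT, and 10.86 and 10.78 in the corresponding H3RKO arrays. The 4 injected arrays thus lay more than 2 log2 units above the highest untreated array, a rise of 2.68 ± 0.22 (SE) or 6.43-fold (adjusted p = 0.0114). Qprt, an enzyme of NAD synthesis from tryptophan breakdown products, was the other gene that rose, by 0.58 ± 0.06 (adjusted p = 0.0346). Its untreated arrays lay between 8.05 and 8.19 and its injected arrays between 8.61 and 8.82, and its second probe set differed by 0.53.

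Of the 4 genes that fell, 3 encode proteins of the extracellular matrix or its remodelling. Mmp3, the matrix metalloproteinase stromelysin, had 9.18 and 9.08 in untreated WT, 9.52 and 9.68 in untreated H3RKO, 8.21 and 8.35 in injected WT and 8.75 and 8.72 in injected H3RKO arrays. Within each genotype the injected arrays were lower by about the same amount, −0.85 in WT and −0.87 in H3RKO, and over both by −0.86 ± 0.06 (adjusted p = 0.00893). Postn, which encodes the fibroblast matrix protein periostin, lay between 10.44 and 10.78 in untreated and between 9.70 and 9.85 in injected arrays, a difference of −0.84 ± 0.07 (adjusted p = 0.0114). Loxl1, an enzyme that crosslinks elastin and collagen, lay between 7.93 and 8.39 in untreated and between 7.07 and 7.33 in injected arrays, a difference of −0.98 ± 0.10 (adjusted p = 0.0319). Sqle, squalene epoxidase of cholesterol synthesis, lay between 8.95 and 9.16 in untreated and between 7.84 and 8.46 in injected arrays, a difference of −0.91 ± 0.09 (adjusted p = 0.0346). The calls hang on single arrays: none was made without the WT CFA array or without the H3RKO CFA+PTX array, and 2 without either WT CFA+PTX or H3RKO untreated replicate 1. With the mean adipocyte signal as a covariate there were 0 calls, with differences of 2.41 for Saa3, 0.51 for Qprt, −0.86 for Mmp3, −0.88 for Postn, −0.92 for Loxl1 and −0.77 for Sqle. Leaving out both gland-low arrays gave 1 call (Saa3, 2.33), with differences of 0.53 for Qprt, −0.87 for Mmp3, −0.88 for Postn, −1.02 for Loxl1 and −0.84 for Sqle.

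**Figure D1:**
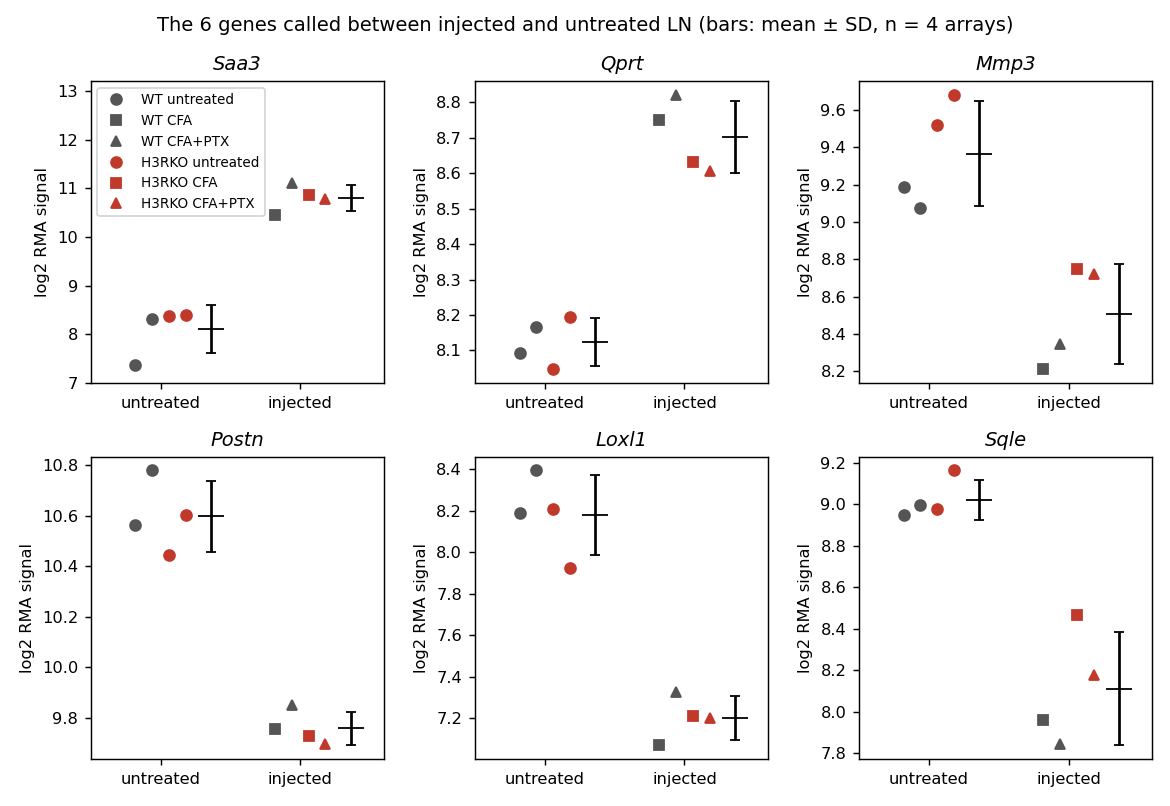
Log2 RMA signal of the 6 genes called between injected and untreated LN, with 1 point per array (WT grey, H3RKO red; circles untreated, squares CFA, triangles CFA+PTX) and bars for the mean ± SD of 4 arrays. In every panel the injected and untreated arrays are separate, and Saa3 moves from 7.38 to 8.41 up to 10.46 to 11.11.

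The study's own criterion, a fold change over 2 at an unadjusted p under 0.05, was met by 5 genes that were higher and 10 that were lower, 15 in all. It was also met by 4 probe sets that the annotation does not pair with a single gene, all lower, by up to −1.19 ± 0.21. Such probe sets have either several genes or none, and they were not counted among the genes here. Besides Saa3, the genes higher with separate arrays were Cd5l, Calml4 and Itih4. Cd5l, a secreted scavenger protein of tissue macrophages, lay between 10.72 and 12.04 in untreated and between 12.48 and 12.66 in injected arrays (1.14 ± 0.28). Calml4, a calmodulin-like gene, differed by 1.04 ± 0.15. Ppbp, a platelet chemokine, was higher by 1.20 ± 0.35, but its arrays overlapped. The gene with the largest fall in this set was Cd209g, a C-type lectin gene, with 7.35 to 8.51 in untreated and 6.21 to 6.71 in injected arrays (−1.41 ± 0.23). Its neighbour in the same family, Cd209f, differed by −1.07 ± 0.16, and Lum, which encodes the collagen-binding proteoglycan lumican, by −1.09 ± 0.16. The adjusted p of these genes lay above 0.05.

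Acute phase and complement genes, whose products are secreted in inflammation, were mostly higher. Of 24 measured members 22 were higher with a median of 0.14, 10 of them had an unadjusted p under 0.05, and in 7 all injected arrays lay above all untreated arrays. The mean signal of the list was 7.84 to 7.99 in untreated and 8.05 to 8.44 in injected arrays, and the WT CFA+PTX array was the highest. Itih4, a gene of the inter-alpha-trypsin inhibitor heavy chain family, lay between 5.79 and 6.01 in untreated arrays, at 6.55 and 6.29 after CFA and at 7.94 and 6.84 after CFA+PTX. Its relative Itih3 differed by 0.65 ± 0.16. Lcn2, a siderophore-binding protein of neutrophils and epithelia, differed by 0.61 ± 0.21 and the haemoglobin scavenger Hp by 0.56 ± 0.23, with overlapping arrays in both. The protease inhibitor gene Serpina3n (0.43 ± 0.14), the endotoxin-binding protein gene Lbp (0.40 ± 0.10), the ferroxidase gene Cp (0.28 ± 0.08) and the complement factor B gene Cfb (0.21 ± 0.06) had separate arrays. Of the 7 Cp probe sets 1 had the opposite sign (−0.03). The liver-type members Saa1 (0.06 ± 0.12), Saa2 (0.17 ± 0.09) and Fga (0.05 ± 0.08) had overlapping arrays. Orm1, an acute phase glycoprotein also made by fat cells, went the other way, from 6.94 to 7.62 in untreated to 5.49 to 6.71 in injected arrays (−1.11 ± 0.25). With the adipocyte signal as a covariate the median was 0.15, and 2 members were higher at an unadjusted p under 0.05, where 4.20% of all genes were. Without both gland-low arrays 17 of 24 were higher.

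C/EBP factors are known to bind promoters of acute phase genes, so the windows from 250 bases before to 50 bases after the transcription start were searched for the core motif TTGCNNAA on both strands (RefSeq, GRCm38.p6). It was present in 12 of the 19 acute phase genes with a window and in 11.1% of the 9887 measured genes with one. Because Saa3 leads the response, members higher at an unadjusted p under 0.05 with a match before the start are shown. Each is given as 60 bases of the gene's strand with the match in capitals. Orm1, which was lower, was left out of this display. The match of Saa3 begins 99 bases before the start (chr7:46715742-46715801, minus strand), that of Cp 70 bases (chr3:19957153-19957212, plus strand) and that of Lcn2 216 bases before it (chr2:32387922-32387981, minus strand).
Saa3: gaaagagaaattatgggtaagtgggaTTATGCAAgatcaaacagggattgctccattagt
Cp: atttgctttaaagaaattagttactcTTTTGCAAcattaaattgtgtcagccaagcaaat
Lcn2: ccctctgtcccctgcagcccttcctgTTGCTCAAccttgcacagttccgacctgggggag
Itih3, Itih4, Serpina3n and Lrg1, which were also higher at an unadjusted p under 0.05, had no such match before the start. Hp, Lbp and Cfb, higher at that threshold too, had no window. A match is a description of the sequence and does not show that a factor was bound.

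Extracellular matrix genes, among them Mmp3, Postn and Loxl1, were mostly lower. Of 31 measured members 28 were lower with a median of −0.44, 23 of these had an unadjusted p under 0.05, and in 18 all injected arrays lay below all untreated arrays. The mean signal was 9.67, 9.72, 9.74 and 9.72 in the untreated arrays and 9.16, 9.32, 9.22 and 9.30 in the injected ones, so the gap between the groups was wider than the range within either. The median was −0.39 in WT and −0.46 in arrays labelled H3RKO, which share no array. Whether fewer matrix-producing cells or less RNA per cell lay behind this cannot be told apart in bulk tissue, here or in the groups below.

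The fibrillar collagens on the list were lower. Col3a1 lay between 11.50 and 12.33 in untreated and between 10.83 and 11.15 in injected arrays (−0.93 ± 0.16), Col1a1 between 9.74 and 10.38 and between 9.26 and 9.34 (−0.81 ± 0.12), and Col1a2 differed by −0.43 ± 0.08. The minor fibrillar chains Col5a1 (−0.63 ± 0.09) and Col5a2 (−0.69 ± 0.12) and the fibril-associated Col14a1 (−0.68 ± 0.13) had separate arrays as well. So had the microfibril-forming chains Col6a1 (−0.45), Col6a2 (−0.63) and Col6a3 (−0.62). Thbs1, which encodes the matricellular protein thrombospondin, differed by −0.89 ± 0.18, Mgp, an inhibitor of calcification, by −0.74 ± 0.16, and Sparc, a collagen-binding glycoprotein, by −0.36 ± 0.07. Fibronectin (Fn1), counted here among macrophage genes, lay between 11.13 and 11.27 in untreated and between 10.19 and 10.72 in injected arrays (−0.77 ± 0.12). The small proteoglycan gene Dcn (−0.05 ± 0.07) and the elastin gene Eln (0.08 ± 0.06) had overlapping arrays. Timp1, an inhibitor of metalloproteinases, differed by −0.52 ± 0.29, with 1 untreated array labelled H3RKO at 8.93 and the other 7 arrays between 6.99 and 7.97. Ccdc80 (−0.80 ± 0.13) and Serpinf1 (−0.68 ± 0.10), secreted proteins of fibroblasts and fat that are not on the list and were chosen after their values were seen, had separate arrays too.

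**Figure D2:**
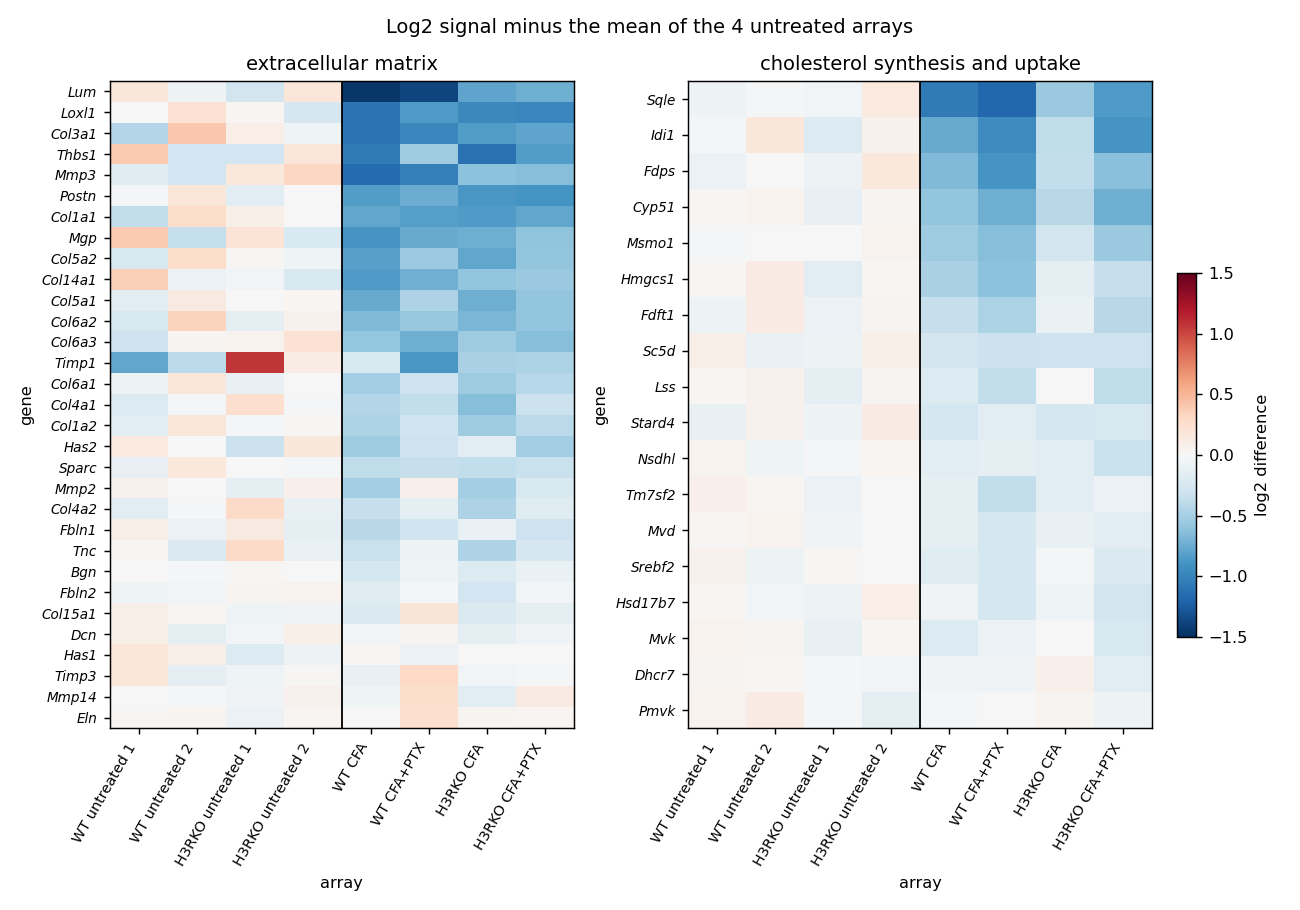
Log2 signal of each extracellular matrix gene (left) and cholesterol gene (right) in the 8 arrays, minus the mean of the 4 untreated arrays, with genes ordered by their difference and colours from −1.5 (blue) to 1.5 (red). The 4 injected columns on the right of each panel are mostly blue, and the H3RKO CFA column is the palest of the cholesterol panel.

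Genes of fat moved in the same direction, with overlapping arrays. Of 24 adipocyte genes 23 were lower with a median of −0.24, 13 had an unadjusted p under 0.05 and 2 had separate arrays. The mean adipocyte signal was 10.16, 9.92, 9.91 and 9.71 in untreated arrays and 9.59 and 9.53 in the WT CFA and WT CFA+PTX, and 9.92 and 9.45 in the H3RKO CFA and H3RKO CFA+PTX arrays. The hormone gene Adipoq lay between 11.51 and 12.16 in untreated and between 10.93 and 11.51 in injected arrays, barely apart, and the leptin gene Lep differed by −0.62 ± 0.22. The fatty acid carrier gene Fabp4, abundant in fat cells and their vessels, differed by −0.15 ± 0.13, and its 4 probe sets ranged from −0.40 to −0.15. In the H3RKO CFA array the adipocyte mean was as high as in untreated arrays, and its matrix mean was 9.22. Without both gland-low arrays 18 adipocyte genes were lower, 5 of them at an unadjusted p under 0.05, where 4.46% of all genes were. With the adipocyte mean as a covariate the matrix median was −0.54, with 21 of 31 members lower at an unadjusted p under 0.05, where 2.46% of all genes were. The part of fat in the matrix difference was not tested.

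Several genes with a fold change over 2 had the same order among the injected arrays. Rbp4, the retinol carrier made by liver and fat, lay between 8.47 and 8.79 in untreated arrays and at 6.91, 7.48, 7.94 and 7.41 in WT CFA, WT CFA+PTX, H3RKO CFA and H3RKO CFA+PTX (−1.25 ± 0.18). Me1, the malic enzyme that supplies NADPH for fatty acid synthesis, differed by −1.18 ± 0.25. Nnat, which encodes the membrane protein neuronatin, differed by −1.30 ± 0.30, the aldehyde dehydrogenase gene Aldh1a7 by −1.20 ± 0.29 and the transmembrane protein gene Tmem45b by −1.18 ± 0.29. In each of these genes and in Orm1, the WT CFA array was the lowest and the H3RKO CFA array the highest of the injected arrays, and all injected arrays lay below all untreated ones. The part of fat in these differences was not tested.

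Genes of cholesterol synthesis and uptake were lower throughout. All 18 measured members were lower with a median of −0.24, 14 had an unadjusted p under 0.05 and 10 had separate arrays. The mean signal was 8.67 to 8.79 in untreated and 8.31 to 8.57 in injected arrays. Along the pathway, the early enzyme gene Hmgcs1 differed by −0.40 ± 0.11, Idi1, which isomerises the isoprenoid unit, by −0.74 ± 0.13, and Fdps, which joins these units, by −0.64 ± 0.09. Fdft1, which makes squalene, differed by −0.33 ± 0.09, although 1 of its 4 probe sets was higher by 0.05. After Sqle came Cyp51 (−0.62 ± 0.08), Msmo1 (−0.50 ± 0.07) and Sc5d (−0.30 ± 0.06), which process the sterol ring, and Srebf2, the transcription factor of the pathway, differed by −0.17 ± 0.06. Cyp51 lay at 8.00, 8.04, 7.86 and 8.03 in untreated arrays and at 7.39, 7.26, 7.56 and 7.25 in injected arrays. The median was −0.30 in WT and −0.21 in arrays labelled H3RKO. With the adipocyte mean as a covariate the median was −0.20. In that fit 7 members were lower at an unadjusted p under 0.05, where 2.46% of all genes were. Fat cells also run this pathway, and their part in the difference was not tested.

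**Figure D3:**
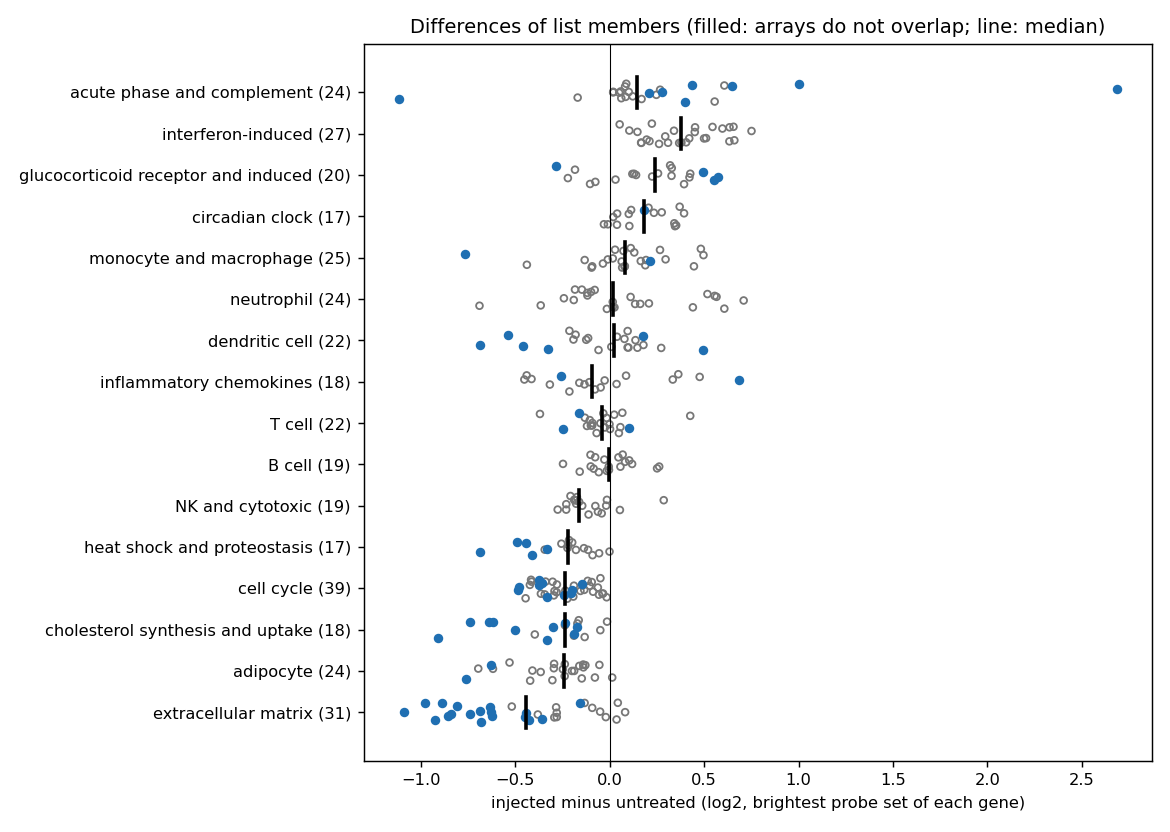
Injected minus untreated difference (log2) of each measured member of 16 gene lists, with filled points where the 4 injected arrays all lie on 1 side of the 4 untreated arrays, open points where they overlap, and a line at the median. Cholesterol, cell cycle and heat shock genes lie to the left of 0, as do all but 3 matrix genes and 1 adipocyte gene, and interferon-induced genes lie to the right of 0 with no filled point.

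Genes of the cell cycle were lower at 24 h. All 39 measured members were lower with a median of −0.24, 22 had an unadjusted p under 0.05 and 10 had separate arrays. Rrm2, a subunit of the enzyme that makes deoxynucleotides, lay between 9.54 and 10.12 in untreated and between 9.19 and 9.48 in injected arrays (−0.49 ± 0.12). The mitotic kinase gene Cdk1 differed by −0.48 ± 0.13, the origin licensing factor Cdc6 by −0.36 ± 0.08, the proliferation antigen gene Mki67 by −0.30 ± 0.11 and the replication clamp Pcna by −0.21 ± 0.05. The mean signal was 8.59 and 8.85 in untreated WT, 8.68 and 8.45 in untreated H3RKO and 8.38, 8.41, 8.41 and 8.41 in the injected arrays. The injected arrays agreed closely, whereas H3RKO untreated replicate 2 lay only slightly above them. With the adipocyte mean as a covariate the median was −0.21, and 4 members had an unadjusted p under 0.05, where 2.46% of all genes were lower at that threshold. Separate arrays were seen in 16 members without both gland-low arrays, where 7.07% of all genes did so downwards.

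Heat shock and chaperone genes, which keep proteins folded and rise with heat or other stress, were also lower. All 17 were lower with a median of −0.22, 10 had an unadjusted p under 0.05 and 5 had separate arrays, and the mean signal was 10.20 to 10.44 in untreated and 10.04 to 10.14 in injected arrays. The inducible chaperone gene Hspa1b lay at 8.16, 7.97, 7.94 and 8.76 in untreated and at 7.53, 7.67, 7.47 and 7.42 in injected arrays (−0.69 ± 0.17). Hsph1, which exchanges nucleotide on such chaperones, differed by −0.49 ± 0.08, the small heat shock protein gene Cryab by −0.45 ± 0.05 and the cochaperone gene Stip1 by −0.41 ± 0.07. Dnaja1 differed by −0.26 ± 0.06, the mitochondrial chaperonin gene Hspd1 by −0.20 ± 0.06 and the constitutive Hspa8 by −0.12 ± 0.06. The adipocyte covariate left 9 members lower at an unadjusted p under 0.05, where 2.46% of all genes were. Without both gland-low arrays 13 members had separate arrays, where 7.07% of all genes did so downwards.

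Heat shock factors bind inverted GAA units, and the core GAANNTTC, chosen after the values were seen, was present in 9 of the 14 heat shock genes with a promoter window and in 7.56% of the 9887 measured genes. The members with an unadjusted p under 0.05 and a match before the start are shown in the same way, since these genes moved together. The match begins 104 bases before the start in Hspa1b (chr17:34959309-34959368, minus strand), 124 in Dnaja1 (chr4:40722318-40722377, plus strand) and 139 in Hspd1 (chr1:55088038-55088097, minus strand).
Hspa1b: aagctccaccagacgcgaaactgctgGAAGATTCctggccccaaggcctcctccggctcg
Dnaja1: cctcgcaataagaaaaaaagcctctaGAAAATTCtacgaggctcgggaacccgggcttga
Hspd1: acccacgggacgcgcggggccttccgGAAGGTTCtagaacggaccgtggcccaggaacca
Hsph1, Stip1, Hspa4l, Ahsa1 and Chordc1 had no such match before the start.

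Interferon-induced antiviral genes were higher in every member but with overlapping arrays. All 27 were higher with a median of 0.38 and 14 had an unadjusted p under 0.05, yet in 0 of them did the groups separate. The mean signal was 9.37 and 9.79 in untreated WT, 9.78 and 10.19 in untreated H3RKO, 10.27 and 10.29 in WT CFA and WT CFA+PTX, and 10.13 and 9.98 in H3RKO CFA and H3RKO CFA+PTX arrays. The gap between the 2 untreated arrays of a genotype was thus as wide as the median difference. Ifit3, an interferon-induced RNA-binding protein gene, lay between 9.36 and 10.83 in untreated and between 10.71 and 11.07 in injected arrays (0.75 ± 0.26), and Irf7, the factor that amplifies the interferon response, differed by 0.66 ± 0.21. The median was 0.64 in WT and 0.06 in arrays labelled H3RKO. For 11 members the test of this genotype difference (limma) gave an unadjusted p under 0.05, with a lowest adjusted p of 0.95. Over all 22626 probe sets, 1157 reached that unadjusted threshold in the same test. Without both gland-low arrays, 1 of which is the lowest untreated array, the median was 0.23, 25 members were higher and 0 had an unadjusted p under 0.05, and with the adipocyte mean as a covariate the median was 0.16, again with 0 members. The core of the interferon-stimulated response element, GAAANNGAA, was present in 10 of 18 promoter windows of this list and in 8.63% of all.

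**Figure D4:**
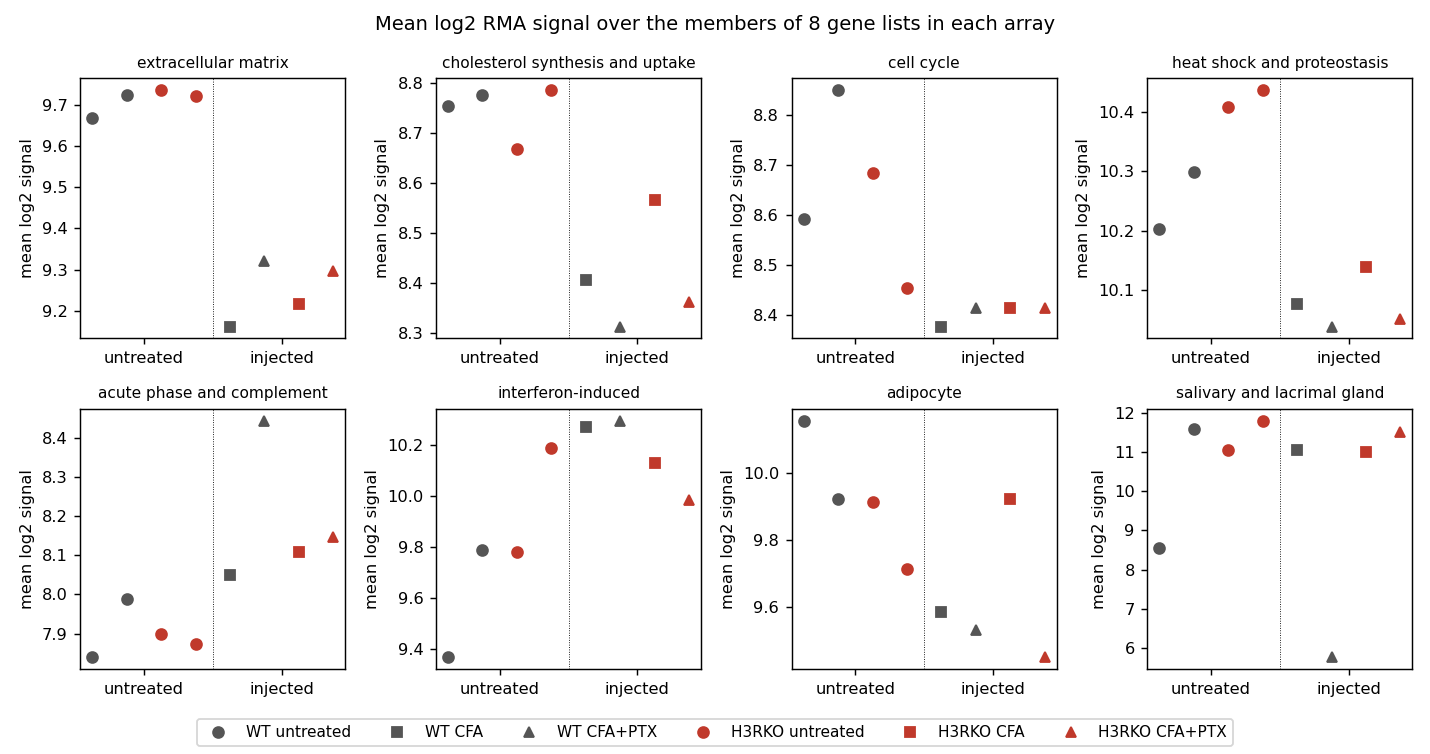
Mean log2 RMA signal over the members of 8 gene lists, with 1 point per array (WT grey, H3RKO red; circles untreated, squares CFA, triangles CFA+PTX) and the untreated arrays left of the dotted line. Matrix, cholesterol, heat shock and acute phase means separate the groups, interferon and adipocyte means overlap, and the gland means show the 2 low arrays at 8.55 and 5.76.

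Genes of antigen-presenting cells did not move together. The median of 22 dendritic cell genes was 0.02, and 12 of them were higher. Those with separate arrays were 4 lower and 2 higher. Cd209a, a lectin receptor of monocyte-derived and dermal dendritic cells, lay between 8.65 and 9.35 in untreated and between 8.24 and 8.59 in injected arrays (−0.69 ± 0.14). Xcr1, the chemokine receptor of cross-presenting dendritic cells, differed by −0.54 ± 0.14, the Langerhans cell lectin gene Cd207 by −0.46 ± 0.08 and the activation marker gene Cd83 by −0.33 ± 0.08. Clec10a, a galactose-type lectin gene, was higher by 0.49 ± 0.11, as was Sirpa by 0.17 ± 0.06, although 2 of the 3 Sirpa probe sets had the opposite sign. Ccr7, the receptor that guides dendritic cells and lymphocytes into the LN, differed by 0.27 ± 0.11 with overlapping arrays. Within the Cd209 family, Cd209b, a lectin gene of LN and spleen macrophages, was at 0.22 ± 0.10, Cd209c at 0.29 ± 0.08, Cd209d at −0.12 ± 0.12 and Cd209e at −0.13 ± 0.12, beside the lower Cd209a, Cd209f and Cd209g. These 4 members were added after their values were seen.

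Among 25 monocyte and macrophage genes, 18 were higher with a median of 0.08, and apart from Fn1 the 1 gene with separate arrays was C1qb, a complement subunit of resident macrophages (0.21 ± 0.08). Fcgr1, the high-affinity IgG receptor, differed by 0.50 ± 0.21, by 1.01 in WT and by −0.02 in arrays labelled H3RKO. The general macrophage marker Adgre1 (−0.09 ± 0.07) and the sinus macrophage receptor Marco (0.11 ± 0.08) had overlapping arrays. Neutrophil genes split, with 13 of 24 higher, a median of 0.02 and no gene with separate arrays, and the calprotectin gene S100a8 differed by 0.11 ± 0.22.

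Cytokine and chemokine genes of acute inflammation showed no common direction. Of 18 inflammatory chemokines 12 were lower, with a median of −0.09. Ccl12, a monocyte-attracting chemokine, lay between 10.27 and 11.02 in untreated and between 11.18 and 11.47 in injected arrays (0.68 ± 0.15), and Xcl1, the ligand of Xcr1, was lower by 0.26 with separate arrays (−0.26 ± 0.08). Ccl2, a close relative of Ccl12, differed by −0.45 ± 0.21 and overlapped. Cxcl10, an interferon-induced chemokine gene chosen after its values were seen, lay at 9.71 and 9.60 in untreated WT and at 10.03 and 9.99 in injected WT arrays, and at 10.50 and 10.41 in untreated and 10.02 and 10.05 in injected arrays labelled H3RKO. It was thus higher after injection in WT (0.35) and lower in H3RKO (−0.42), with an unadjusted p of 0.00016 and an adjusted p of 0.739 for the interaction (limma). Of 36 cytokine and receptor genes 16 were higher, and Il18, which induces interferon gamma, was the 1 higher gene with separate arrays (0.46 ± 0.11). Il6 (0.35 ± 0.20), Il1b (−0.16 ± 0.13) and Tnf (−0.23 ± 0.09) had overlapping arrays. Socs3, the feedback inhibitor induced by IL-6 family cytokines through STAT3, was higher, with 9.91 to 10.28 in untreated and 10.56 to 10.74 in injected arrays (0.54 ± 0.08). The follicle chemokine gene Cxcl13 (0.28 ± 0.09) and the chemokine receptor gene Cxcr4 (0.46 ± 0.10) had separate arrays as well.

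Of 20 genes of the glucocorticoid receptor and its targets 15 were higher, 5 of them at an unadjusted p under 0.05, and the median was 0.24. Anxa1, a glucocorticoid-induced inhibitor of leukocyte migration, differed by −0.29 ± 0.07 without overlap. Dusp1, a phosphatase that ends MAP kinase signaling, lay between 9.87 and 10.13 in untreated arrays, at 10.42 and 10.28 after CFA and at 10.80 and 10.93 after CFA+PTX. Tsc22d3, which encodes the glucocorticoid-induced leucine zipper protein, differed by 0.55 ± 0.11 and Ddit4, an inhibitor of mTOR signaling, by 0.49 ± 0.11, both with separate arrays. Measured against the same untreated arrays, the median of the list was 0.04 in CFA and 0.47 in CFA+PTX arrays, and with the adipocyte mean as a covariate it was 0.11 over both. Of 17 circadian clock genes 15 were higher and the median was 0.18. The time of day at which LN were taken is not given in the sources used here. Per1, a clock gene that glucocorticoids also induce, differed by 0.39 ± 0.10 and the repressor gene Cry2 by 0.18 ± 0.06.

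Both genotypes gave related responses. Across 12393 genes, the injected minus untreated differences of WT and of arrays labelled H3RKO had a Pearson r of 0.37 and a Spearman rho of 0.29, a description over genes, which are not independent replicates. Of the 419 genes higher in WT at an unadjusted p under 0.05, 76.6% were higher in H3RKO, compared with 58.4% of all genes, and of the 516 genes lower in WT 74.4% were lower in H3RKO, compared with 41.6% of all. In both genotypes 58 genes were higher and 105 lower at this threshold, against 8 and 6 genes in opposite directions. Within 1 genotype, limma called 0 genes after adjustment in WT (1600 probe sets at an unadjusted p under 0.05) and 0 in H3RKO (1785 probe sets). The interaction of genotype with injection also had 0 called genes, with a lowest adjusted p of 0.489 and 1157 probe sets at an unadjusted p under 0.05. For Saa3 the difference was 2.94 in WT and 2.43 in H3RKO, and for Loxl1 −1.09 and −0.86.

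**Figure D5:**
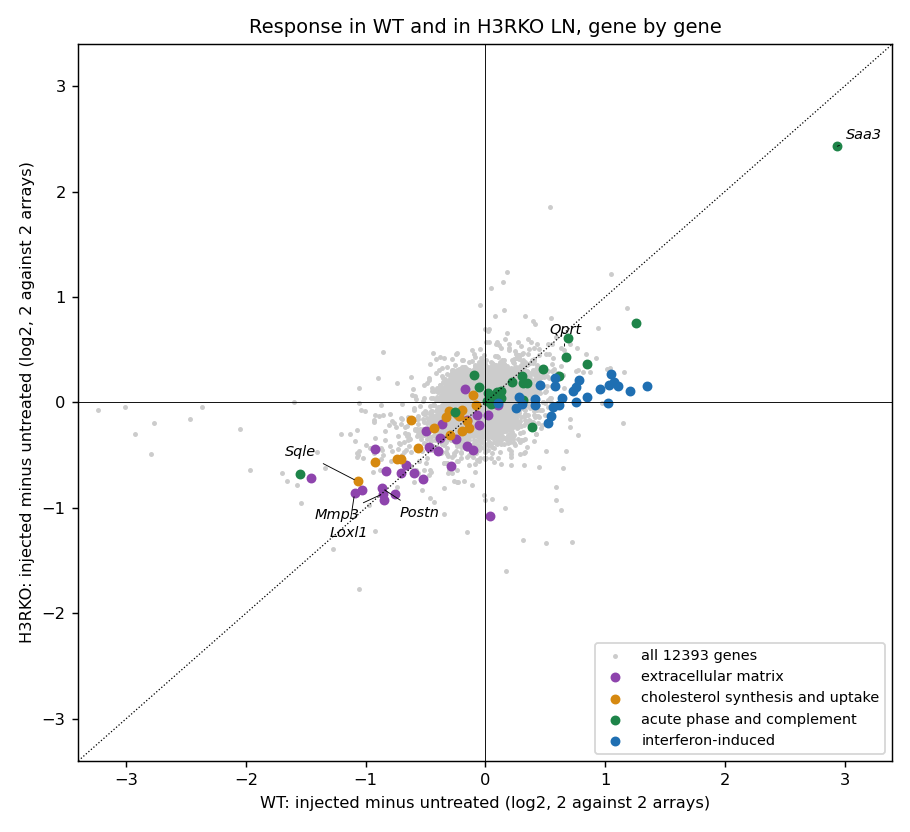
Injected minus untreated difference (log2, 2 against 2 arrays each) in WT on the x axis and in arrays labelled H3RKO on the y axis for 12393 genes (grey), with members of 4 lists coloured, the 6 called genes named and the line of equal difference dotted. Matrix, cholesterol and acute phase genes lie along the line, whereas interferon-induced genes spread along the WT axis (median 0.64) near 0 on the H3RKO axis (median 0.06).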

How the data were processed

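LN RNA was hybridised to single-colour Affymetrix GeneChip Mouse Genome arrays, 1 array per pool. RMA was run by the authors, which turns probe intensities into 1 quantile-normalised value per probe set, and the deposited table holds log2 values for 22690 probe sets in 8 arrays, which ranged from 2.42 to 14.40 with array medians of 7.936 to 7.995. The number of arrays limits the precision.

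After 64 control probe sets were set aside, 22626 were tested with limma 3.58.1 in R 4.3.3 (Python 3.11.15, pandas 2.3.3, numpy 2.4.6 and matplotlib 3.10.9 for the rest) by a linear model with genotype and injection (5 residual degrees of freedom), and by a model with 4 group means (4 residual degrees of freedom) for WT, H3RKO and their interaction. The study compared genotypes within a treatment, so the pooled comparison is not one of its own. P-values were adjusted by the Benjamini-Hochberg method over all probe sets. Gene names came from the platform annotation, in which 20380 probe sets had 1 gene, 691 several and 1555 none, giving 12393 genes. A gene was called when any own probe set had an adjusted p under 0.05, and its value is that of its brightest own probe set.

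Named genes were up to 15 with the largest rise and 15 with the largest fall among called genes with separate arrays, filled from genes with a fold change over 2, together with Hrh3, up to 4 genes with the largest difference of each list discussed and the defining markers of cell type lists. Other named genes were chosen after their values were seen. The members and the 47 gene lists were chosen with earlier results of these data known, and lists are described by counts and medians only. Alternatives were another prior, normalisations, filters, covariates for sex, gland and adipocyte signal, the replicate block, the study's criterion and leaving out each array. Leaving out both arrays low in gland genes was chosen after seeing the data.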

Additional observations from a re-analysis of the deposited data

Results flagged for a closer look

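In groups of 4 arrays, the gap between an extreme array and its nearest neighbour was set against the range of the group. Of 130 groups tested, 9 had an array that stood apart, where chance gives about 1 in 20. Among the genes, the untreated WT replicate 1 array lay below the other untreated arrays in Saa3 (7.38, a gap of 0.916 of the range), and H3RKO untreated replicate 2 did so in Rbp4 (8.47, 0.840). Among list means of the injected arrays, WT CFA was low in homeostatic chemokines (10.50, 0.931) and in cell cycle genes (8.38, 0.978, within a narrow range), H3RKO CFA+PTX was high in immediate early genes (9.44, 0.957), and WT CFA+PTX was low in salivary and lacrimal gland genes (5.76, 0.912). Among list means of the untreated arrays, WT replicate 2 was high in B cell genes (11.29, 0.830), H3RKO replicate 1 was high in plasma cell and germinal centre genes (9.24, 0.873), and WT replicate 1 was high in genes of high endothelial venules and blood endothelium (9.69, 0.971). The direction in WT was also set against that in H3RKO for 65 measures, namely the list means, the called genes and the genes at the study's criterion, and not for other genes such as Cxcl10. Among these, in the mean of microbial sensing genes both injected WT arrays lay above and both injected H3RKO arrays lay below the untreated arrays of their genotype, with a difference of −0.180 between genotypes that was not tested.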

How the results depend on the processing

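The 6 genes called between injected and untreated LN kept their direction in all 21 alternatives, and an adjusted p under 0.05 in 15 of them for Mmp3 and Saa3, 14 for Postn, 8 for Loxl1, 7 for Qprt and 5 for Sqle. The number of calls was 0 with an ordinary linear model, 1 with the gland covariate, 0 with the adipocyte covariate, 15 at the study's criterion, 1 with an adjusted p and a fold change over 2, and between 0 and 7 when 1 array was left out, with 3 without WT untreated replicate 2. Without both gland-low arrays, chosen after seeing the data, it was 1. The interaction had 26 genes at the study's criterion. In WT, where 0 genes were called, there were 9 with a trended robust prior, 1 without dim probe sets, 1 with the sex covariate, 41 at the study's criterion, 2 without both gland-low arrays, and between 0 and 3 when 1 array was left out. In H3RKO there were 2 with the sex covariate, 19 at the study's criterion, 1 without both gland-low arrays and 0 in each left-out array. Only untreated pools share replicate numbers, and their deviations correlated at 0.123 in 1 pair of groups. This single value cannot show whether pools with the same number were paired, and the main test used no pairing. With the replicate block, 5 genes were called between injected and untreated LN and 5 in WT. Of 3703 values of 169 named genes, 31 turned sign, in 13 genes, and of 1034 list medians 58 did, in 19 of 47 lists. The median ranged from −0.54 to −0.39 for matrix, from −0.28 to −0.20 for cholesterol, from −0.29 to −0.17 for cell cycle, from −0.27 to −0.19 for heat shock, from 0.08 to 0.25 for acute phase and from 0.16 to 0.54 for interferon-induced genes. The cause of these changes was not tested.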

Other observations

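Vascular and lymphocyte genes showed smaller differences. Of 23 genes of high endothelial venules and blood endothelium 19 were higher, with a median of 0.12, 0.02 in CFA and 0.23 in CFA+PTX arrays. Over all 8 arrays, 1 of them lay above and 1 below with separate arrays (4.35% each), where 3.36% and 2.93% of all genes did. Without both gland-low arrays, chosen after seeing the data, 7 of them lay above with separate arrays, where 10.4% of all genes did. Chst4, a sulfotransferase that finishes the L-selectin ligands of high endothelial venules, lay between 7.67 and 7.99 in untreated and between 8.00 and 8.39 in injected arrays (0.36 ± 0.10). Aplnr, the apelin receptor of endothelium, went the other way without overlap, from 9.41 to 9.75 down to 8.92 to 9.03 (−0.61 ± 0.09). Of 22 T cell genes 15 were lower with a median of −0.04, and Cd8b1 (−0.25 ± 0.07) and the adhesion receptor gene Cd2 (−0.16 ± 0.06) had separate arrays, whereas those of Cd8a (−0.37 ± 0.10) overlapped. Of 19 genes of NK and cytotoxic cells 17 were lower, with a median of −0.16 and no separate arrays. The NK and cytotoxic median was −0.02 in CFA and −0.24 in CFA+PTX arrays, −0.03 in WT and −0.20 in arrays labelled H3RKO. Of the T cell genes 12 were higher in WT (median 0.01) and 18 were lower in arrays labelled H3RKO (median −0.10).

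Housekeeping systems had medians near that of all genes. Of 27 proteasome genes 25 were lower with a median of −0.07, and of 33 respiratory chain genes 29 were lower with a median of −0.06. The respiratory chain median was 0.01 in CFA and −0.12 in CFA+PTX arrays, it turned to 0.04 with the adipocyte covariate, and without both gland-low arrays it was −0.03. Of 24 cytosolic ribosomal protein genes 20 were higher with a median of 0.02. Of the proteasome genes 3 had separate arrays, all lower (11.1%, where 2.93% of all genes did so), and 7 without both gland-low arrays, where 7.07% of all genes did so.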
